A study of Ambystoma mexicanum with 49 samples.

Results

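Poly(A) RNA of 3 single axolotl embryos at stage 10, the early gastrula, was compared with that of 3 single embryos at stage 9, the late blastula. The axolotl, Ambystoma mexicanum, is a salamander with a large, yolky egg. These 6 libraries are all those of stages 10 and 9 among the 49 poly(A) libraries of 17 stages, and they were taken by their stage label. The labels name no transgene, mutation or treatment for either stage, and give the age as a stage and not in hours. Embryos of both stages were freed of jelly and gathered at 20 °C. Each whole embryo was stored in preservative, homogenized and extracted on its own. Replicates are therefore separate embryos, and the sources used here do not say from how many clutches they came. The stage names early gastrula and late blastula come from general staging knowledge, since the labels give the number. Embryos are called 1, 2 and 3 by their replicate number, and values of 3 embryos are always listed in that order. The labels do not say whether equal numbers link embryos of different stages.

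Gastrulation begins when cells at the dorsal side of an amphibian blastula fold inward and the germ layers take their places. The egg supplies the early embryo with maternal mRNA, and transcription of the embryo's own genome starts at the midblastula transition, after which maternal messages are cleared while zygotic ones accumulate. Nodal, Wnt, FGF and BMP signals then set out mesoderm, endoderm and ectoderm, and the organizer secretes inhibitors of BMP and Wnt ligands.

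The stage 10 libraries held 29.1, 27.0 and 21.5 M estimated counts and the stage 9 libraries 30.3, 12.4 and 33.1 M. Mitochondrially encoded genes took 8.29%, 7.68% and 7.71% of the counts at stage 10, against 15.6%, 9.71% and 10.2% at stage 9, and embryo 1 of stage 9 lay apart from the other 5 in this respect. Levels are given in TPM, which are set per unit of transcript length and add up to the same sum in every library. Log2 changes, stage 10 over stage 9, are given ± SE and come from counts scaled between libraries, so they can differ from a ratio of TPM. This SE was derived from the F value of edgeR's test and was not fitted on its own. No library pair within stage 10 or stage 9 differed as little as sampling noise would allow, so each was counted as 1 embryo. In the check for genes of differentiated tissue (muscle, blood, liver, lens, pigment), 10 of 83 listed genes had 0 counts in all 6 libraries. Their summed level was 517, 600.1 and 724 TPM at stage 10, against 508, 567 and 623 TPM at stage 9. None of the 80 that could be tested was called by edgeR or by DESeq2, and 9 were higher and 0 lower at an unadjusted edgeR p under 0.05. Of all 14437 genes tested, 1015 were higher and 1439 lower at that threshold. Without stage 10 embryo 1, 9 of the listed genes were again higher and 0 lower, beside 394 and 580 of 14432 genes tested. The list's median log2 change was 0.19, or 0.26 without that embryo.

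The stage 10 embryos were not alike, and embryo 1 stood apart from embryos 2 and 3. To place each embryo, its log2 levels were set on a scale on which the stage 9 mean is 0 and the stage 12 mean is 1. The scale used the 9018 genes that differed between stages 12 and 8, a contrast that shares no library with stages 9 and 10. The libraries of stages 9 and 10 did enter the scaling and the estimate of the spread behind that choice. On this scale, stage 10 embryo 1 lay at 0.354, embryo 2 at 0.0926 and embryo 3 at 0.132. Stage 9 embryos lay at 0.00102, -0.0292 and 0.0282. Embryos 2 and 3 of stage 10 were thus nearer to every stage 9 embryo than to embryo 1 of their own stage. The 2 libraries of stage 11 were further apart still, with 0.0777 for embryo 2 and 0.507 for embryo 3. Stage 11 embryo 2 lay below all 3 embryos of stage 10 on this scale, and stage 10 embryo 1 lay between the 2 embryos of stage 11. The order of the stage 10 and stage 11 embryos was the same when libraries were scaled by DESeq2 or by library size alone, and with genes of 10 CPM (counts per 1 M) or more. With only the genes that were higher at stage 12 than at stage 8, a choice made after seeing the data, stage 11 embryo 2 at 0.0873 lay above stage 10 embryo 2 at 0.0719. The labels give no time or clutch for any embryo, so whether the embryos differed in age within a stage was not tested.

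**Figure D1:**
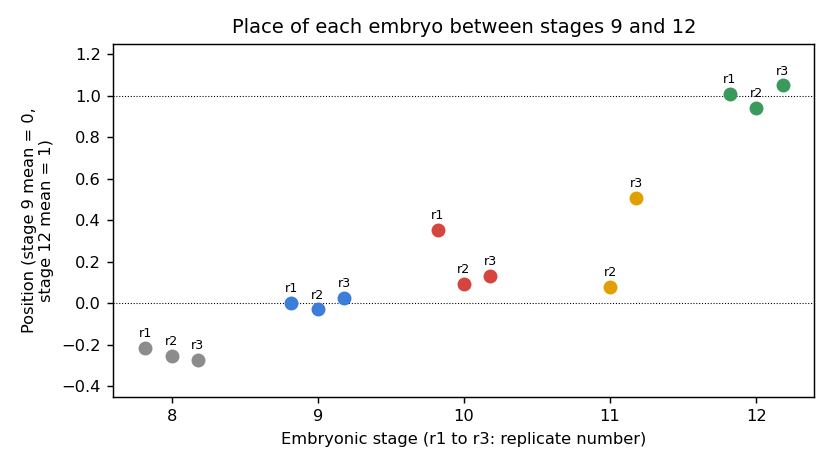
Position of each embryo (y axis, stage 9 mean = 0, stage 12 mean = 1, no unit) at stages 8 to 12 (x axis), over 9018 genes that differ between stages 12 and 8. Stage 10 embryo 1 at 0.354 stands above embryos 2 and 3 at 0.0926 and 0.132, and the stage 11 embryos stand at 0.0777 and 0.507.

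In correlations of log2 CPM across genes, stage 10 embryos 2 and 3 had a Pearson r of 0.987, while embryo 1 had 0.980 with embryo 2 and 0.981 with embryo 3. The r of stage 10 embryo 1 with stage 11 embryo 3 was 0.984, higher than with either embryo of its own stage. That of stage 10 embryo 2 with stage 9 embryo 3 was 0.987. These are correlations across genes, which are not independent replicates. The median SD of log2 CPM over genes was 0.192 among the stage 10 embryos, against 0.159 among the stage 9 embryos. It ranged from 0.108 at stage 7 to 0.308 at stage 2 over the 15 stages with 3 libraries, so the spread at stage 10 was neither the widest nor the narrowest. Taken over pairs of stage 10 embryos, it was 0.0832 for embryos 2 and 3, 0.174 for embryos 1 and 3 and 0.197 for embryos 1 and 2.

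Between stages 10 and 9, edgeR's quasi-likelihood test with Benjamini-Hochberg adjustment called 264 genes higher and 273 genes lower of 14437 tested, or 1.83% and 1.89%, together 537 genes (3.72%). The median log2 change was 1.03 over the genes called higher, -0.83 over those called lower and 0 over all genes tested. The scaling between libraries holds the last of these near 0. More increases than decreases were large, with 139 increases and 78 decreases of at least 1 on the log2 scale, and 37 and 13 of at least 2. Without stage 10 embryo 1, edgeR called 13 genes higher and 13 lower, all of them among the 537. Of 72 called genes picked by the naming rule, 64 lost the call without embryo 1, and CXCL12, G0S2, PCNA, SFRP5, TMEM57, TNFRSF21, TXNIP and ZNF608 kept it. With stage 10 embryos 2 and 3 alone, all 264 and 273 genes differed from stage 9 in the same direction. These embryos also entered the calls, so this describes the calls and does not test them. A fit of stages 9 and 10 alone called 2 genes higher, ANKRD37 and G0S2, and 0 lower, with 1066 higher and 1567 lower at an unadjusted p under 0.05. Leaving out stage 9 embryo 2 gave 77 higher and 78 lower, and leaving out stage 9 embryo 1 gave 132 and 111. A fit of stages 8 to 12 alone called 0 genes by edgeR, with 1020 higher and 1246 lower at an unadjusted p under 0.05. The same fit without the 2 stage 11 libraries called 286 higher and 401 lower. In whole embryos, a lower level can come from fewer cells of a type or from less poly(A) RNA per cell, which cannot be told apart. Total RNA was not used here, so a change in poly(A) RNA need not be a change in total RNA.

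Stage 10 embryo 1 lay furthest from stage 9 for most of these genes. It was the highest of the stage 10 embryos in 251 of the 264 genes called higher and the lowest in 254 of the 273 called lower. Over all genes tested these shares were 38.8% and 39.5%. The genes called higher had a median log2 difference from the stage 9 mean of 1.55 in embryo 1, 0.63 in embryo 2 and 0.68 in embryo 3. For the genes called lower these medians were -1.33, -0.55 and -0.68. The calls were made from these same embryos, so these values describe the calls and do not test them. The stage 11 libraries were not among the 6 compared, though they entered the estimate of the spread, and the same genes differed between their embryos. Embryo 3 of stage 11 was above embryo 2 for 252 of the 264 genes and below it for 260 of the 273, against 47.9% and 44.7% of all genes tested.

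**Figure D2:**
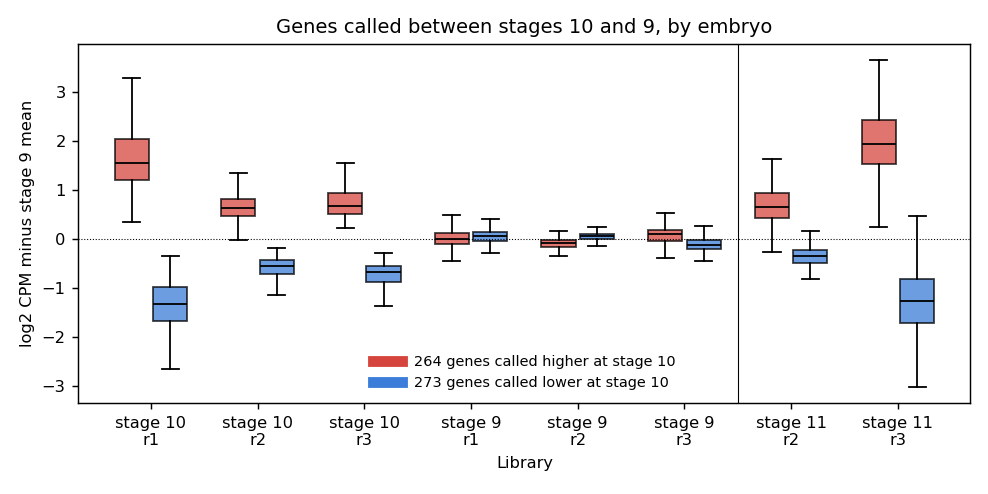
Log2 CPM of each embryo minus the stage 9 mean (y axis) for the 264 genes called higher and the 273 called lower at stage 10, by library (x axis). Boxes span the quartiles with the median as a line, and whiskers reach to the last value within 1.5 box lengths. Stage 10 embryo 1 has medians of 1.55 and -1.33, further from 0 than the other stage 10 embryos.

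The direction at stage 10 was mostly that of the whole span from stage 8 to stage 12. That span includes the change from stage 8 to stage 9, so it does not isolate what followed stage 10. Stages 12 and 8 share no library with stages 10 and 9, though all entered the same fit. In the comparison of stages 12 and 8, 31% of all genes tested were called higher and 31.5% lower. Of the 264 genes higher at stage 10, 256 (97%) were higher at stage 12 than at stage 8, 1 was lower and 7 were not called. Of the 273 genes lower at stage 10, 256 (93.8%) were lower at stage 12 than at stage 8, 7 were higher and 10 were not called. Without stage 10 embryo 1, 12 of the 13 genes called in each direction kept the direction in stage 12 against 8.

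**Figure D3:**
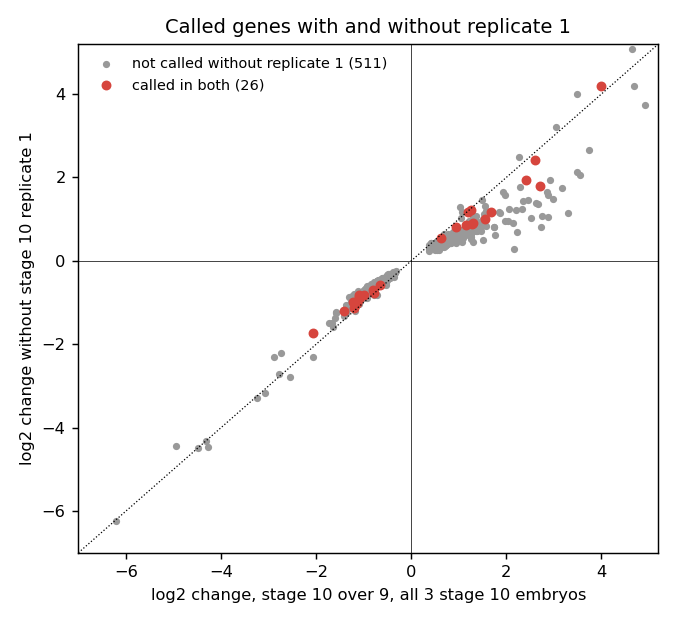
Fitted log2 change, stage 10 over stage 9, with all 3 stage 10 embryos (x axis) and without embryo 1 (y axis), for the 537 called genes. The dotted line marks equal changes. The 26 genes still called without embryo 1 are in red, and all points keep their sign.

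The mesoderm list showed how unequal the stage 10 embryos were. Of its 44 tested genes, 5 rose (GATA2, PRDM1, SP5, TBX1 and WNT8A) and 0 fell by edgeR's test, or 11.4% and 0%. Of all genes tested, 1.83% rose and 1.89% fell. In the list, 14 were higher and 4 lower at an unadjusted p under 0.05, beside 1015 and 1439 of all 14437 genes tested. Without embryo 1, 0 were called and 3 were higher and 1 lower at that threshold, beside 394 and 580 of 14432 genes tested. The list's median log2 change was 0.53 with embryo 1 and 0.00 without it. The level of T (brachyury), the T-box gene that marks forming mesoderm, was 88.0, 6.89 and 7.93 TPM at stage 10, against 10.9, 11.3 and 9.42 TPM at stage 9. Embryo 1 alone was above stage 9, and embryos 2 and 3 were below every stage 9 embryo. The log2 change was 1.98 ± 0.68 with an edgeR adjusted p of 0.0943, and -0.45 ± 0.58 without embryo 1. Among the panel genes T was the clearest case, since at stage 11 embryo 2 had 11.8 and embryo 3 had 204.5 TPM, and all stage 12 embryos were at 212 TPM or more.

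SP5, a transcription factor switched on by Wnt signals, rose, with 171, 38.4 and 49.6 TPM at stage 10, against 37.5, 30.6 and 20.9 TPM at stage 9. Its log2 change was 1.77 ± 0.46 (edgeR adjusted p = 0.0198), and the groups did not overlap by a narrow margin at embryo 2. Without embryo 1 it was 0.62 ± 0.41 (edgeR adjusted p = 0.887). TBX1, a T-box gene later used in head mesoderm, had 7.33, 2.65 and 2.21 TPM at stage 10, against 1.23, 0.828 and 0.666 TPM at stage 9 (log2 change 2.34 ± 0.65, edgeR adjusted p = 0.0345). All stage 10 embryos were above all stage 9 embryos. MIXL1, a homeobox gene switched on by Nodal signals, was at 903, 381 and 424 TPM at stage 10, against 363, 286 and 218 TPM at stage 9. Its groups did not overlap, yet it was not called (log2 change 1.17 ± 0.44, edgeR adjusted p = 0.131). In scaled counts, 29.1% of all genes tested had stages that did not overlap, so a lack of overlap alone does not set a gene apart. Among called genes, 248 of the 264 higher and 267 of the 273 lower did not overlap. EOMES, a T-box gene of mesendoderm, had 3.99, 13.1 and 10.8 TPM at stage 10, against 21.5, 17.3 and 14.7 TPM at stage 9, and was not called either (-0.84 ± 0.32, edgeR adjusted p = 0.149).

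The endoderm list did not set embryo 1 apart as the mesoderm list did. Its median log2 CPM difference from the stage 9 mean was 0.60, 0.27 and 0.60 in stage 10 embryos 1, 2 and 3, against 1.11, 0.07 and 0.11 for mesoderm genes, and that of the organizer list was 0.72, 0.25 and 0.38. Of 24 endoderm genes 3 rose (12.5%), CER1 and PRDM1 among them, and 0 fell, beside 1.83% and 1.89% of all genes. The median log2 change was 0.42. Without embryo 1 it was 0.29, none was called by edgeR, and 2 were higher at an unadjusted p under 0.05. Of 14432 genes tested without embryo 1, 394 were higher at that threshold. Of 18 organizer genes 3 rose (CER1, IRX3 and OTX2), or 16.7%, and 0 fell. Their median was 0.36, or 0.21 with 0 called without embryo 1. CER1, a secreted inhibitor of Nodal, BMP and Wnt ligands, had 104, 36.6 and 56.9 TPM at stage 10, against 43.0, 23.2 and 20.5 TPM at stage 9. The groups overlapped, since embryo 2 of stage 10 was below embryo 1 of stage 9 (log2 change 1.37 ± 0.40, edgeR adjusted p = 0.049).

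The organizer genes GSC, CHRD and NOG differed between embryos within both stages. GSC, the homeobox gene goosecoid, had 22.0, 39.3 and 36.5 TPM at stage 10, against 40.4, 23.0 and 16.9 TPM at stage 9. Its lowest stage 10 value was in embryo 1, and its groups overlapped (log2 change 0.40 ± 0.42, edgeR adjusted p = 0.658). CHRD, the BMP inhibitor chordin, had 219, 168 and 186 TPM at stage 10, against 241, 145 and 93.2 TPM at stage 9 (0.41 ± 0.42, edgeR adjusted p = 0.647). NOG, the BMP inhibitor noggin, had 5.11, 15.7 and 16.1 TPM at stage 10, against 25.3, 17.5 and 10.5 TPM at stage 9 (-0.43 ± 0.52, edgeR adjusted p = 0.711). For all 3 genes the range over the stage 9 embryos was as wide as the difference between stages or wider. The interval of the difference is therefore wide, and a missed threshold does not show equal levels.

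The endoderm factors GATA4, GATA6 and SOX17 were not called either. GATA6 was at 70.9, 27.7 and 32.1 TPM at stage 10, against 25.3, 16.9 and 12.2 TPM at stage 9 (1.46 ± 0.46, edgeR adjusted p = 0.0664). Its groups did not overlap, as in 29.1% of all genes tested. GATA4 was at 17.6, 1.92 and 3.13 TPM at stage 10, against 4.33, 1.03 and 0.753 TPM at stage 9 (2.05 ± 0.69, edgeR adjusted p = 0.0904). SOX17 was at 46.7, 21.1 and 25.3 TPM at stage 10, against 24.7, 12.3 and 16.2 TPM at stage 9 (0.98 ± 0.42, edgeR adjusted p = 0.214). In each of the 3 the highest value was that of stage 10 embryo 1.

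**Figure D4:**
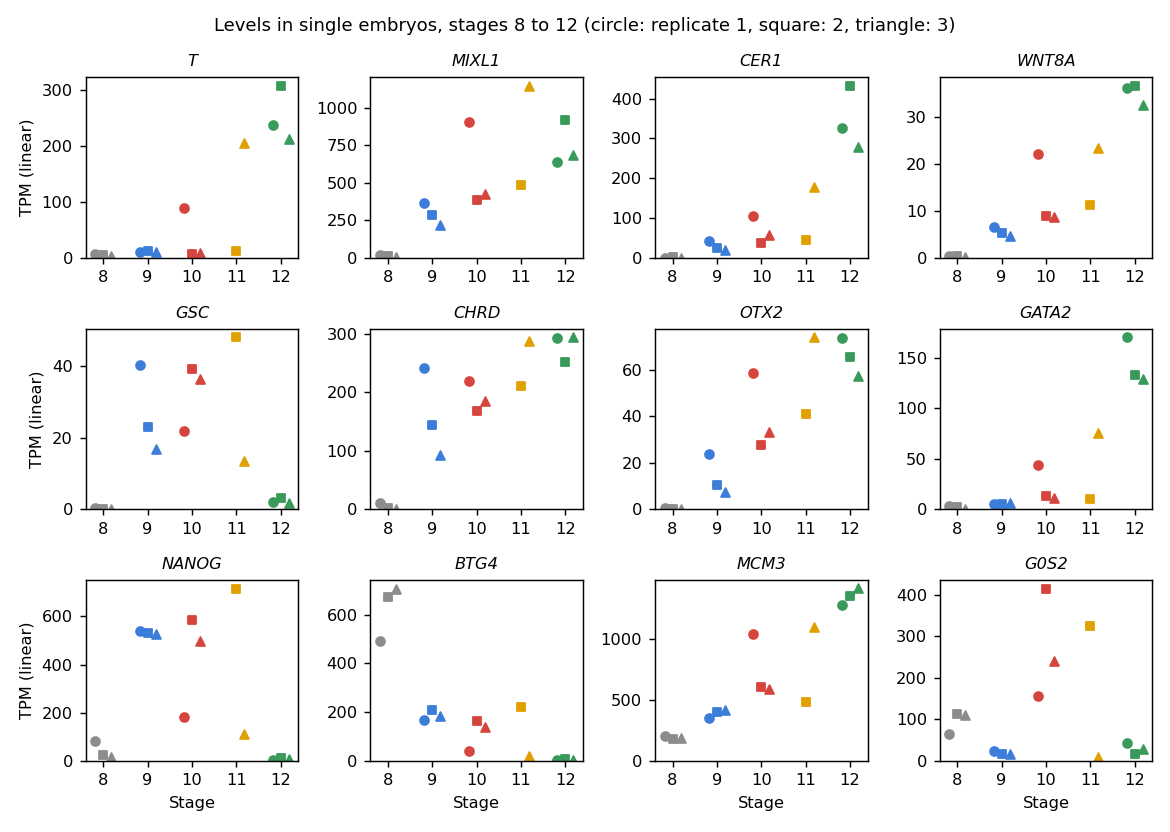
Levels of 12 genes (y axis, TPM, linear scale, each panel with its own range) in single embryos at stages 8 to 12 (x axis), with circles for embryo 1, squares for embryo 2 and triangles for embryo 3. T, MIXL1, CER1 and GATA2 are highest at stage 10 in embryo 1, as in T with 88.0 TPM against 6.89 and 7.93, while NANOG, BTG4 and GSC are lowest in it.

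Among 73 genes of Wnt signalling 6 rose and 4 fell by edgeR's test, or 8.22% and 5.48% beside 1.83% and 1.89% of all genes, with a median log2 change of 0, and SFRP5 alone was called without embryo 1. The ligand WNT8A, which patterns ventral and lateral mesoderm in frogs, had 22.2, 8.89 and 8.65 TPM at stage 10, against 6.58, 5.30 and 4.66 TPM at stage 9. All stage 10 values were above all stage 9 values (log2 change 1.47 ± 0.38, edgeR adjusted p = 0.0216), and without embryo 1 the change was 0.72 ± 0.36 (adjusted p = 0.761). SFRP5, a secreted protein that binds and blocks Wnt ligands, was at 70.0, 18.3 and 27.7 TPM at stage 10, against 9.80, 5.70 and 4.96 TPM at stage 9. Its stage 10 embryos lay well above stage 9, with a log2 change of 2.71 ± 0.40 (edgeR adjusted p = 0.000182) and of 1.79 ± 0.35 without embryo 1 (adjusted p = 0.0232). SFRP1, a secreted relative of SFRP5, and the ligand WNT5B also rose, with 14.2, 1.79 and 3.59 TPM and 25.8, 7.88 and 8.96 TPM at stage 10, against 1.59, 0.908 and 1.38 TPM and 4.47, 6.56 and 4.19 TPM at stage 9.

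The Wnt genes that fell are a ligand pair, a receptor and a relay. DVL3, a Dishevelled protein that relays the Wnt signal in the cell, had 7.98, 20.1 and 19.1 TPM at stage 10, against 38.8, 32.3 and 23.6 TPM at stage 9 (log2 change -0.90 ± 0.23, edgeR adjusted p = 0.0202). WNT5A, a ligand of the branch that steers cell movement, had 1.01, 2.67 and 2.63 TPM at stage 10, against 5.04, 4.75 and 4.19 TPM at stage 9 (-1.04 ± 0.31, edgeR adjusted p = 0.0491). The receptor FZD6 and the ligand WNT10A made up the rest. SFRP1, WNT5B, WNT5A, FZD6 and WNT10A are named to complete the count and were chosen after their values were seen. WNT5A and WNT5B, close relatives, therefore passed the test in opposite directions.

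The FGF list had 3 genes higher and 2 lower of 44, or 6.82% and 4.55%, beside 1.83% and 1.89% of all genes. Its median log2 change was -0.03, and 0 were called without embryo 1. FGFR2, counted as lower, rested on stage 9 embryo 3, with 0.970, 0.675 and 8.46 TPM at stage 9. FGFR4, an FGF receptor, had 89.0, 57.5 and 66.1 TPM at stage 10, against 44.7, 38.3 and 20.8 TPM at stage 9 (1.21 ± 0.31, edgeR adjusted p = 0.0207). FGF17, an FGF ligand, was at 8.99, 1.37 and 2.71 TPM at stage 10, against 1.26, 0.615 and 0.488 TPM at stage 9 (2.66 ± 0.66, edgeR adjusted p = 0.0152). SPRY4, a feedback inhibitor of FGF signalling chosen after its values were seen, rose by 0.93 ± 0.26 on the log2 scale (edgeR adjusted p = 0.0333). FGF8, a ligand of the panel, had 36.2, 41.5 and 36.2 TPM at stage 10, against 51.4, 35.4 and 30.0 TPM at stage 9 (0.10 ± 0.34, edgeR adjusted p = 0.929).

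The median log2 change of 24 Nodal and activin genes was -0.14. By edgeR's test 1 rose and 0 fell, or 4.17% and 0% beside 1.83% and 1.89% of all genes. That gene was CFC1, an EGF-CFC co-receptor of Nodal, with 94.4, 71.2 and 76.4 TPM at stage 10, against 44.7, 51.5 and 50.2 TPM at stage 9 (0.89 ± 0.17, edgeR adjusted p = 0.00257). Its groups were clear of each other in every embryo, and without embryo 1 the change was 0.65 ± 0.18 (edgeR adjusted p = 0.14). The ligand NODAL had 25.2, 26.3 and 23.1 TPM at stage 10, against 18.5, 21.1 and 30.6 TPM at stage 9, and its inhibitor LEFTY2 had 17.2, 9.35 and 11.6 TPM at stage 10, against 10.1, 11.7 and 13.3 TPM at stage 9. Neither was called, with log2 changes of 0.24 ± 0.48 and 0.30 ± 0.51 (edgeR adjusted p = 0.857 and 0.821). The BMP list had 2 higher (BMP2 and GATA2) and 1 lower (ID4) of 35, or 5.71% and 2.86%, with a median of -0.06, and 0 called without embryo 1. BMP2, a BMP ligand, had 44.95, 10.8 and 15.8 TPM at stage 10, against 12.4, 9.29 and 7.62 TPM at stage 9 (1.504 ± 0.43, edgeR adjusted p = 0.036), so embryo 2 overlapped stage 9. ID4, an inhibitor of helix-loop-helix factors, had 0.781, 1.11 and 1.21 TPM at stage 10, against 16.0, 4.40 and 2.44 TPM at stage 9 (-2.78 ± 0.79, edgeR adjusted p = 0.0359).

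In RNA of whole embryos, 4 of 50 genes of the surface ectoderm list rose (ATP1B2, FOXI2, GATA2 and OVOL2) and 0 fell. These shares were 8% and 0%, beside 1.83% and 1.89% of all genes. The median log2 change was 0.20, or 0.12 with 0 called without embryo 1. GATA2, a zinc finger factor of ventral ectoderm and mesoderm, had 43.5, 12.8 and 11.1 TPM at stage 10, against 5.02, 4.87 and 5.72 TPM at stage 9. All stage 10 embryos were above all stage 9 embryos (2.33 ± 0.54, edgeR adjusted p = 0.00979), and the adjusted p without embryo 1 was 0.546. GATA2 was also counted among the genes called higher of the mesoderm and BMP lists. FOXI2, a forkhead factor, was nearly even over the stage 10 embryos, with 117, 86.9 and 84.6 TPM at stage 10, against 52.0, 47.4 and 27.6 TPM at stage 9 (1.36 ± 0.33, edgeR adjusted p = 0.0138). ATP1B2, a sodium pump subunit, had 556, 254 and 317 TPM at stage 10, against 145, 116 and 133 TPM at stage 9 (1.71 ± 0.39, edgeR adjusted p = 0.00979). KRT18, an epithelial keratin, was not called, at 90.3, 67.4 and 90.7 TPM at stage 10, against 37.2, 50.8 and 58.4 TPM at stage 9 (0.93 ± 0.30, edgeR adjusted p = 0.0791). Its groups did not overlap, as in 29.1% of all genes tested.

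The neural plate list had 3 of 47 genes higher (DLL1, IRX3 and OTX2) and 0 lower, or 6.38% and 0%. All genes tested had 1.83% and 1.89%. The list's median was 0, and 0 were called without embryo 1. OTX2, a homeobox gene of the organizer and the forebrain, had 58.6, 27.8 and 33.1 TPM at stage 10, against 23.6, 10.6 and 7.29 TPM at stage 9. Every stage 10 embryo was above every stage 9 embryo (1.70 ± 0.37, edgeR adjusted p = 0.00596). IRX3, a homeobox gene of the neural plate, rose by 2.06 ± 0.46 and DLL1, a Notch ligand, by 2.04 ± 0.47 on the log2 scale (edgeR adjusted p = 0.00713 and 0.00987). Of 27 pluripotency genes 2 rose (KLF2 and OTX2) and 1 fell (POU2F3), or 7.41% and 3.7%, with a median of 0.18. NANOG, a homeobox factor of pluripotent cells, had 181, 585 and 499 TPM at stage 10, against 541, 533 and 527 TPM at stage 9, and 715 and 110.3 TPM in stage 11 embryos 2 and 3. Stage 10 embryo 1 and stage 11 embryo 3 were the low ones, and stage 12 was at 5.34 to 11.0 TPM. NANOG was not called between stages 10 and 9 (-0.24 ± 0.46, edgeR adjusted p = 0.851). POU5F1, the POU factor Oct4, had 289, 142 and 148 TPM at stage 10, against 97.8, 121 and 96.2 TPM at stage 9 (1.07 ± 0.34, edgeR adjusted p = 0.063). KLF2, a zinc finger factor, had 84.7, 66.7 and 68.8 TPM at stage 10, against 28.4, 36.3 and 20.5 TPM at stage 9 (1.54 ± 0.38, edgeR adjusted p = 0.014).

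Of the 26 genes of a panel of germ layer and maternal genes, CER1 and WNT8A rose (7.69%) and 0 fell by edgeR's test. Of all genes tested, 1.83% rose and 1.89% fell. Without embryo 1, 0 genes of the panel were called. The panel genes not yet described did not pass the test. FOXA2, a forkhead factor of endoderm and organizer, had 81.6, 59.1 and 62.6 TPM at stage 10, against 66.3, 51.4 and 40.4 TPM at stage 9. SOX2, a factor of ectoderm and pluripotent cells, had 124, 118 and 117 TPM at stage 10, against 106, 105 and 80.8 TPM at stage 9. VENTX, a homeobox gene of the BMP response in frogs, had 112, 77.6 and 69.9 TPM at stage 10, against 74.95, 72.4 and 54.3 TPM at stage 9. These 3 were a little higher on average at stage 10, with log2 changes of 0.53 ± 0.18, 0.45 ± 0.17 and 0.54 ± 0.24 (edgeR adjusted p = 0.104, 0.143 and 0.228). LHX1, a homeobox gene of the organizer, was high in embryo 1 alone, with 18.3, 5.47 and 7.59 TPM at stage 10, against 10.9, 11.1 and 7.68 TPM at stage 9 (0.30 ± 0.64, edgeR adjusted p = 0.867). The Wnt inhibitor DKK1, the activin inhibitor FST, the ectoderm factor TFAP2A and the oocyte gene ZAR1 had log2 changes of 0.10 ± 0.30, -0.22 ± 0.63, 0.19 ± 0.36 and 0.37 ± 0.36, with edgeR adjusted p of 0.635 or more.

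Ribosomal protein genes shifted more than any other list in its median log2 change. Of 70 ribosomal protein genes tested, 28 rose and 0 fell by edgeR's test, a share of 40% where 1.83% of all genes rose, and the median log2 change was 0.78 with 69 of 70 above 0. The DESeq2 Wald test called 45. Without embryo 1 edgeR called 0, with 21 higher and 1 lower at an unadjusted p under 0.05, beside 394 and 580 of 14432 genes tested. The ribosomal protein genes then had a median of 0.46, with 68 of 70 above 0. Their summed level was 11300, 7625 and 7607 TPM at stage 10, against 5279, 5168 and 7103 TPM at stage 9. Stage 9 embryo 3 was close to stage 10 embryos 2 and 3, and stage 10 embryo 1 was far above both. RPS7, a protein of the small ribosomal subunit, had 314, 188 and 198 TPM at stage 10, against 121, 105 and 158 TPM at stage 9 (1.04 ± 0.25, edgeR adjusted p = 0.012). RPL28, of the large subunit, had 168, 104 and 104 TPM at stage 10, against 58.0, 52.9 and 83.3 TPM at stage 9 (1.12 ± 0.28, edgeR adjusted p = 0.014). Reads of near-identical copies can be shared between ribosomal protein genes, so single members are uncertain.

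A list of splicing genes (HNRNP, SFRS, SNRP, SF3, PRPF and U2AF names) was added after such genes were seen among the calls, so its count is a description. It had 24 of 67 genes higher (35.8%) and 0 lower, beside 1.83% and 1.89% of all genes. The median log2 change was 0.57, against 0.27 and 2 called (HNRNPC and SFRS1) without embryo 1. The splicing factor SFRS1 had 1443, 862 and 953 TPM at stage 10, against 475, 486 and 569 TPM at stage 9 (1.27 ± 0.20, edgeR adjusted p = 0.000545). HNRNPC, a protein that packages nascent RNA, had 448, 224 and 224 TPM at stage 10, against 103, 106 and 139.6 TPM at stage 9 (1.55 ± 0.25, edgeR adjusted p = 0.000545). Both were higher in every stage 10 embryo than in any at stage 9. Nucleolar genes, also listed after the calls were seen, had 4 of 36 (11.1%) higher (DKC1, NCL, NOP56 and NPM1) and 0 lower. NOP56, a core protein of the particles that modify ribosomal RNA, had 169, 119.8 and 120.2 TPM at stage 10, against 61.7, 67.9 and 76.6 TPM at stage 9 (1.16 ± 0.20, edgeR adjusted p = 0.000867).

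Of 73 oxidative phosphorylation genes 3 rose (ATP5H, COX4I1 and COX7C) and 0 fell, or 4.11% beside 1.83% of all genes, with 70 of 73 above 0, a median of 0.24 and 0 called without embryo 1. COX4I1, a nuclear-encoded subunit of cytochrome oxidase, had 278, 194 and 208 TPM at stage 10, against 136, 146 and 172 TPM at stage 9 (0.75 ± 0.18, edgeR adjusted p = 0.00996). The histone list had 4 of 22 genes higher (H2AFY2, H2AFZ, H3F3A and HIST3H2BB) and 0 lower, or 18.2% higher, with a median of 0. The first 3 of these 4 encode variant histones. H2AFZ, the variant H2A.Z, had 3047, 1800.0 and 1834 TPM at stage 10, against 1213, 1145 and 1274 TPM at stage 9 (1.06 ± 0.23, edgeR adjusted p = 0.0055). Without embryo 1 none of the histone genes was called, and 3 were higher and 2 lower at an unadjusted p under 0.05. Of 14432 genes tested without embryo 1, 394 were higher and 580 lower at that threshold.

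**Figure D5:**
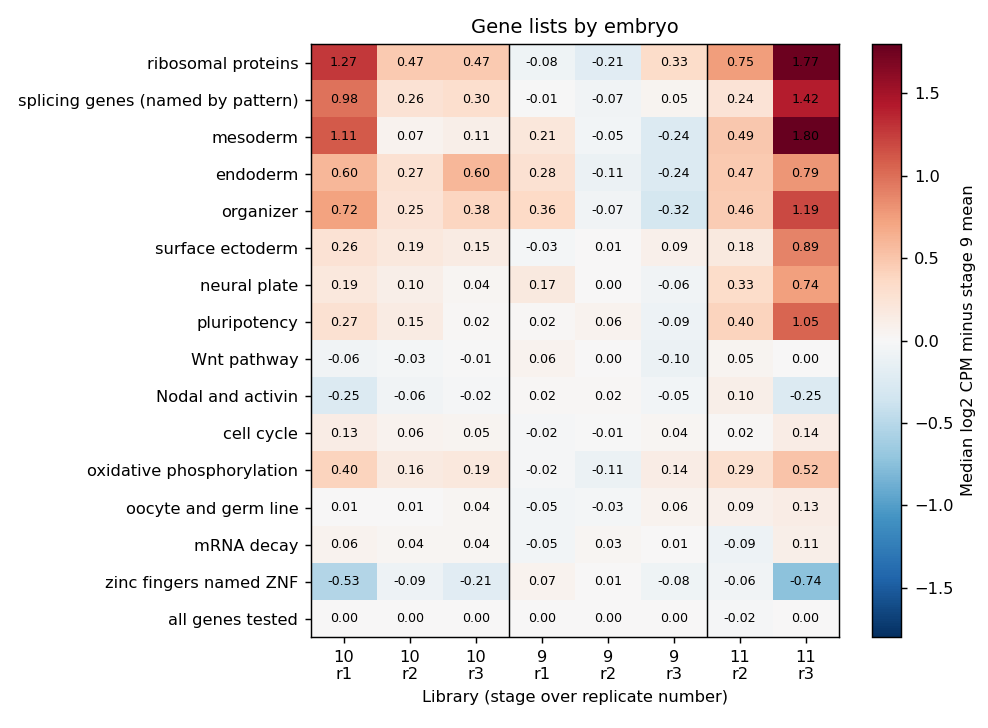
Median over each gene list of log2 CPM minus the stage 9 mean (colour and printed number) in the libraries of stages 10, 9 and 11 (x axis, stage over replicate number). Ribosomal proteins read 1.27, 0.47 and 0.47 in stage 10 embryos 1, 2 and 3, and mesoderm genes 1.11, 0.07 and 0.11, while all genes tested read 0.00 in each of the 3. The scaling between libraries holds the median over all genes near 0.

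The cell cycle list had 4 genes higher (CCNB3, MCM3, PCNA and TOP2A) and 2 lower (CDKN1A and MDM4) of 77, or 5.19% and 2.6% beside 1.83% and 1.89% of all genes, with a median log2 change of 0.07. PCNA, the sliding clamp of DNA polymerases, was even across embryos, with 183, 182 and 190.3 TPM at stage 10, against 117, 134 and 149.5 TPM at stage 9 (0.62 ± 0.11, edgeR adjusted p = 0.00128). It was the one member called without embryo 1 (0.54 ± 0.12, edgeR adjusted p = 0.0447). MCM3, a subunit of the replicative helicase, had 1039, 606 and 587 TPM at stage 10, against 353, 402 and 415 TPM at stage 9 (1.12 ± 0.22, edgeR adjusted p = 0.00308). TOP2A, the topoisomerase that untangles chromosomes, had 1073, 880.0 and 894 TPM at stage 10, against 562, 666 and 683 TPM at stage 9 (0.74 ± 0.16, edgeR adjusted p = 0.00456). The groups did not overlap for these 3 genes, as in 29.1% of all genes tested and 248 of the 264 genes called higher. The cell cycle inhibitor CDKN1A, chosen after its values were seen, had 8.35, 17.2 and 18.9 TPM at stage 10, against 24.9, 23.3 and 31.9 TPM at stage 9 (-0.74 ± 0.22, edgeR adjusted p = 0.0455).

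Among 75 genes of cell movement and adhesion 3 rose and 2 fell, or 4% and 2.67% beside 1.83% and 1.89% of all genes, with a median log2 change of 0.09. CXCL12, a chemokine that guides migrating cells, had 29.1, 17.4 and 14.9 TPM at stage 10, against 4.94, 7.79 and 1.22 TPM at stage 9. The groups did not overlap (2.41 ± 0.41, edgeR adjusted p = 0.000867), and CXCL12 was the one member called without embryo 1 (1.94 ± 0.41, edgeR adjusted p = 0.0372). EFNA1, an ephrin ligand of boundary formation, rested on embryo 1, with 29.4, 4.12 and 6.401 TPM at stage 10, against 5.15, 2.89 and 1.89 TPM at stage 9 (2.23 ± 0.56, edgeR adjusted p = 0.0171), and its change without embryo 1 was 0.68 ± 0.51. Embryo 2 of stage 10 was inside the stage 9 range. EPHA4, an ephrin receptor, rose by 1.31 ± 0.33 (edgeR adjusted p = 0.0158). SHROOM3, which drives apical constriction of epithelial cells, fell to 9.14, 24.9 and 19.4 TPM at stage 10, against 40.6, 41.1 and 31.6 TPM at stage 9 (-0.97 ± 0.23, edgeR adjusted p = 0.0101).

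Other large increases were named by size, by a rule that kept only called genes whose groups did not overlap. VASN, a membrane protein that binds TGF-beta, had 75.3, 13.8 and 21.6 TPM at stage 10, against 10.4, 6.04 and 4.44 TPM at stage 9 (2.63 ± 0.47, edgeR adjusted p = 0.00128). CYP27C1, which converts vitamin A1 to vitamin A2 in fish and frogs, had 84.8, 24.8 and 27.2 TPM at stage 10, against 12.99, 10.4 and 10.8 TPM at stage 9 (2.21 ± 0.44, edgeR adjusted p = 0.0032). RNF125, a ubiquitin ligase, had 116, 47.3 and 53.2 TPM at stage 10, against 26.9, 21.5 and 20.7 TPM at stage 9 (1.84 ± 0.42, edgeR adjusted p = 0.00889). In all 3 genes embryo 1 had more than the other stage 10 embryos together. PDZD3, a scaffold protein, was higher in each stage 10 embryo, with 15.8, 7.04 and 9.86 TPM at stage 10, against 3.56, 2.21 and 1.77 TPM at stage 9 (2.29 ± 0.47, edgeR adjusted p = 0.00616). None of VASN, CYP27C1, RNF125 and PDZD3 was called by edgeR without embryo 1, with changes of 1.38 ± 0.40, 1.23 ± 0.40, 1.17 ± 0.41 and 1.78 ± 0.49 in that order.

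Among genes with a mean of 10 TPM or more at stage 10, those with the widest spread of log2 CPM over the stage 10 embryos were EFNA1, EFNB3, GJB6, OLFM4, OMG, RNU2-1, T, TMEM150B, VASN and ZEB2. The highest stage 10 value lay in embryo 1 for 9 of these 10 genes, beside 38.8% of all genes tested. The minimum of 10 TPM and the ranking used these same embryos, so this count describes the choice and tests nothing. Genes such as T and OMG passed the minimum only through embryo 1. EFNB3, an ephrin ligand, was lowest in embryo 1, with 2.73, 33.2 and 19.7 TPM at stage 10, against 32.5, 32.02 and 30.7 TPM at stage 9. GJB6, a gap junction protein, had 134, 22.8 and 41.0 TPM at stage 10, against 30.0, 8.90 and 12.5 TPM at stage 9 (2.14 ± 0.52, edgeR adjusted p = 0.0131). ZEB2, a zinc finger repressor of cell adhesion genes, had 30.6, 5.21 and 6.04 TPM at stage 10, against 4.58, 7.85 and 3.94 TPM at stage 9 (1.63 ± 0.51, edgeR adjusted p = 0.0613). The groups overlapped for both. At stage 11 embryo 3 exceeded embryo 2 for the same pair, with 29.5 and 208 TPM of GJB6 and 6.74 and 46.4 TPM of ZEB2 in embryos 2 and 3.

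The 10 largest decreases among called genes of 10 TPM or more without overlap were all in genes with more TPM in every stage 8 embryo than in any at stage 9. Higher levels at stage 8 were not particular to these 10. The 273 genes called lower had median log2 differences from the stage 9 mean of 0.76, 0.87 and 0.83 in the stage 8 embryos. Over all genes tested these medians were 0. TNFRSF21, a death-domain receptor, had 15.7, 31.2 and 31.2 TPM at stage 10, against 70.9, 76.3 and 77.5 TPM at stage 9, and fell by 1.41 ± 0.24 on the log2 scale (edgeR adjusted p = 0.000944). RBPMS2, an RNA-binding protein known from oocytes, had 6.94, 21.6 and 18.1 TPM at stage 10, against 44.8, 42.5 and 33.6 TPM at stage 9 (-1.27 ± 0.29, edgeR adjusted p = 0.00984). PAK6, a kinase of the p21-activated family, had 3.55, 7.66 and 7.73 TPM at stage 10, against 16.9, 18.9 and 15.7 TPM at stage 9 (-1.33 ± 0.24, edgeR adjusted p = 0.0013). Embryo 1 was the lowest in each, and the groups were clear of each other, as the choice of these genes required. MXD3, a partner of MAX that represses transcription, had 3.42, 15.8 and 13.1 TPM at stage 10, against 23.7, 30.1 and 27.9 TPM at stage 9, after 160.4, 262 and 278 TPM at stage 8. The other large decreases of these 10 were ADCY6, an adenylyl cyclase, ATXN1L, a partner of the repressor capicua, BCL9L, a beta-catenin cofactor, CHST14, a dermatan sulfotransferase, KIAA0922 and TMEM57. Their fitted log2 changes lay between -1.58 and -1.20. Of these 10 genes, TMEM57 and TNFRSF21 were called without embryo 1.

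The maternal lists were read beside all genes, of which 1.83% rose and 1.89% fell. Of 54 oocyte and germ line genes 2 rose (CCNB3 and PRDM1) and 1 fell (LSM14B), or 3.7% and 1.85%, with a median log2 change of 0.08 and 0 called without embryo 1. At an unadjusted edgeR p under 0.05, 2 of them were higher and 8 lower, beside 1015 and 1439 of all 14437 genes tested. LSM14B, an RNA-binding protein of mouse oocytes, had 15.3, 29.0 and 20.3 TPM at stage 10, against 40.1, 44.1 and 41.2 TPM at stage 9 (-0.83 ± 0.17, edgeR adjusted p = 0.0036). BTG4, an adaptor of the CCR4-NOT deadenylase in mouse maternal mRNA clearance, was not called, with 40.6, 162 and 141 TPM at stage 10, against 166, 208 and 183 TPM at stage 9 (-0.59 ± 0.36, edgeR adjusted p = 0.412). Embryo 1 was far below the other 5 embryos. Of 54 mRNA decay genes 2 rose and 0 fell, or 3.7% and 0%, while 3 were higher and 7 lower at an unadjusted edgeR p under 0.05. TOB2, which recruits the deadenylase, had 348, 174 and 172 TPM at stage 10, against 82.0, 93.8 and 115 TPM at stage 9 (1.45 ± 0.26, edgeR adjusted p = 0.00128). ZFP36L2, a protein that binds AU-rich elements and promotes decay, had 398, 493 and 483 TPM at stage 10, against 338, 374 and 419.5 TPM at stage 9 (0.42 ± 0.11, edgeR adjusted p = 0.0273). Without embryo 1 neither TOB2 nor ZFP36L2 was called, with changes of 0.89 ± 0.23 and 0.43 ± 0.12 (edgeR adjusted p = 0.111 and 0.185). Zinc finger genes with ZNF names had 2 higher and 9 lower of 354 tested, or 0.565% and 2.54%, with a median of -0.30, or -0.21 without embryo 1. ZNF608 had 13.5, 19.7 and 18.5 TPM at stage 10, against 26.3, 33.2 and 30.6 TPM at stage 9 (-0.66 ± 0.12, edgeR adjusted p = 0.00117), and was called without embryo 1 too.

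The 26 genes called with and without stage 10 embryo 1 were also called when any other of the 6 embryos was left out. They are named here after their values were seen. The omissions reuse the same embryos, so they describe the calls and do not test them. In the fit of stages 9 and 10 alone, G0S2 was the only 1 of the 26 still called. With stages 8 to 12 alone, 0 genes were called. The 13 higher ones were ARL6IP1, ARRDC3, CALR, CXCL12, G0S2, HNRNPC, JUB, NOP56, PCNA, SFRP5, SFRS1, TARDBP and TXNIP. The 13 lower ones were ANKRD13C, C2orf55, FAM193A, HDAC3, NCKAP5L, NIPA2, PI4K2A, PPP1R10, PRAGMIN, TMEM57, TNFRSF21, USP34 and ZNF608. CALR, the calcium-binding chaperone calreticulin, had 385, 336 and 383 TPM at stage 10, against 194, 226 and 223 TPM at stage 9 (0.94 ± 0.13, edgeR adjusted p = 0.000142). JUB, a LIM protein of cell junctions also called ajuba, had 11.1, 7.92 and 10.7 TPM at stage 10, against 1.36, 1.30 and 2.57 TPM at stage 9 (2.60 ± 0.39, edgeR adjusted p = 0.000182). In both, embryos 1 and 3 of stage 10 were close to each other and embryo 2 was a little lower. TARDBP, an RNA-binding protein known as TDP-43, rose by 1.31 ± 0.21 and ARL6IP1, a membrane-shaping protein of the endoplasmic reticulum, by 1.69 ± 0.23 (edgeR adjusted p = 0.000545 and 0.000142). HDAC3, a histone deacetylase, had 17.3, 40.6 and 36.7 TPM at stage 10, against 68.0, 75.1 and 76.1 TPM at stage 9 (-1.10 ± 0.19, edgeR adjusted p = 0.00117). USP34, a deubiquitinase, had 2.84, 4.17 and 3.91 TPM at stage 10, against 8.39, 9.57 and 9.64 TPM at stage 9 (-1.20 ± 0.19, edgeR adjusted p = 0.000545). PPP1R10, a regulatory subunit of protein phosphatase 1, had 41.0, 69.0 and 68.0 TPM at stage 10, against 160.1, 127 and 149 TPM at stage 9, after 33.5 to 40.4 TPM at stage 8.

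For a small set of genes called higher, embryo 1 was not the highest of the stage 10 embryos. G0S2, an inhibitor of the triglyceride lipase ATGL, had the largest increase among the genes named by size, with 157, 415 and 240.2 TPM at stage 10, against 22.5, 16.97 and 15.6 TPM at stage 9 (3.98 ± 0.65, edgeR adjusted p = 0.000545). ANKRD37, an ankyrin repeat protein induced by low oxygen in mammalian cells, had 127, 293 and 152 TPM at stage 10, against 24.9, 27.3 and 23.5 TPM at stage 9 (3.05 ± 0.75, edgeR adjusted p = 0.0148). For both genes the stage 9 embryos were far below all those of stage 10, and also below those of stage 8, with 65.0 to 112 TPM of G0S2 and 107 to 165 TPM of ANKRD37. At stage 11 embryo 2 had 324 TPM of G0S2 and 168 TPM of ANKRD37, while embryo 3 had 9.97 and 1.64 TPM. ANKRD37 was the 1 gene called higher at stage 10 and lower at stage 12 than at stage 8, with at most 0.308 TPM at stage 12. In all, embryo 1 was not the highest of the stage 10 embryos for 13 of the 264 genes called higher, which beside these 2 were ACY3, AMN, ARRDC3, HSP90B1, NUPR1, PPP1R15A, SLBP, SRPX, TUBA3D, TXNIP and ZFP36L2.

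The 3 of these 13 described next were NUPR1, PPP1R15A and TXNIP. NUPR1, a stress-induced chromatin protein, had 23.4, 39.0 and 34.3 TPM at stage 10, against 14.9, 16.3 and 19.1 TPM at stage 9 (1.07 ± 0.29, edgeR adjusted p = 0.029). PPP1R15A, which restores translation after stress, had 33.0, 99.1 and 61.4 TPM at stage 10, against 41.0, 19.4 and 41.0 TPM at stage 9 (1.02 ± 0.30, edgeR adjusted p = 0.0399), with embryo 1 inside the stage 9 range. TXNIP, an inhibitor of thioredoxin that responds to glucose, had 13.9, 18.1 and 14.1 TPM at stage 10, against 7.35, 9.40 and 5.86 TPM at stage 9 (1.19 ± 0.23, edgeR adjusted p = 0.00257). NUPR1 and PPP1R15A were chosen after their values were seen, and TXNIP was a member of the immediate early and stress list. That list had 5 genes higher (ATF4, HSPA8, IER5, KLF2 and TXNIP) and 3 lower (CDKN1A, FOSL2 and JUND) of 53. These shares were 9.43% and 5.66%, beside 1.83% and 1.89% of all genes. The list's median log2 change was 0. FOSL2, an AP-1 factor, fell by 1.37 ± 0.29 on the log2 scale (edgeR adjusted p = 0.00494). IER5, an immediate early gene, was even over embryos, with 331, 316 and 296 TPM at stage 10, against 195, 222 and 196 TPM at stage 9 (0.78 ± 0.18, edgeR adjusted p = 0.00776). SRPX rested on a single embryo, with 6.11 TPM in embryo 2 against 0.116 and 0.312 TPM in embryos 1 and 3 of stage 10.

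Some genes called lower rested on stage 9 embryo 3. FGFR2, an FGF receptor, had 0.869, 0.578 and 0.748 TPM at stage 10, against 0.970, 0.675 and 8.46 TPM at stage 9 (-2.07 ± 0.54, edgeR adjusted p = 0.0207). Without stage 9 embryo 3 its log2 change was -0.03 (edgeR adjusted p = 1). PHLDA3, a target of p53, had 3.27, 1.69 and 3.27 TPM at stage 10, against 2.05, 8.63 and 42.9 TPM at stage 9, and KLF9, a zinc finger factor, had 0.305, 0.328 and 0.154 TPM at stage 10, against 0.404, 2.70 and 14.6 TPM at stage 9. AREG and CSF1, a growth factor and a cytokine, were likewise high in stage 9 embryo 3 alone, at 12.9 and 6.45 TPM. The calls of all 5 genes ended without that embryo, with edgeR adjusted p of 0.242 or more. PHLDA3, KLF9, AREG and CSF1 were chosen after their values were seen. FGFR2 and CSF1 were among the 7 genes lower at stage 10 and higher at stage 12 than at stage 8, beside C11orf41, IP6K2, MMP25, VEZF1 and a gene with a provisional name.

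The number of genes at 1 TPM or more was 11104, 11456 and 11447 at stage 10, against 11516, 11591 and 11701 at stage 9. Every stage 10 embryo was below every stage 9 embryo, and the mean difference was -267 genes. The two-sided exact permutation test gave p = 0.1, the smallest that 3 embryos against 3 allow.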

How the data were processed

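Poly(A) libraries of single axolotl embryos were sequenced as paired reads of 101 bases with 6 libraries per lane, per the labels' protocols. Per the submitters' processing notes, Bowtie 0.12.1 and RSEM 1.1.6 were used, and the reference they were run on is not known from the sources at hand. The authors deposited expected counts per gene, which need not be whole and were rounded here for the tests. The authors also deposited TPM values, used here for levels only. Strand and the sharing of reads between near-identical genes are not described, so members of gene families (ribosomal proteins, histones, splicing factors, keratins, globins) are uncertain.

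All 49 poly(A) libraries of 17 stages entered a single edgeR 4.0.16 quasi-likelihood fit (R 4.3.3, TMM scaling, genes kept by filterByExpr per stage), so the spread is estimated over all stages. The filter kept 14437 of 15631 genes and dropped 0.00288% of all counts. Calls used a Benjamini-Hochberg adjusted p under 0.05. The SE of a log2 change is the size of that change divided by the square root of its quasi-likelihood F value. Log2 CPM used a prior count of 1. Position on the scale of stage 9 to stage 12 is the projection of an embryo's log2 CPM on the difference of the 2 stage means.

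Genes were named by rule: the 10 calls that rose most and the 10 that fell most, if they had a symbol, 10 TPM or more on average in 1 of the stages and values of the stages that did not overlap, up to 4 members with the smallest adjusted p of each list, a panel, and the 10 genes with the widest spread of log2 CPM at stage 10, with a symbol and 10 TPM or more. The members, lists and panel were chosen with earlier results of these data known. Lists share members, so called genes such as CER1, GATA2, OTX2 and PRDM1 were each counted in several lists. Alternatives were DESeq2 1.42.0 (size factors and Wald test), limma 3.58.1 voom with sample weights, library size alone, no filter on low counts, fewer stages in the fit, a replicate block, and each of the 6 embryos left out. Total RNA libraries were not used here. Some called genes of the endoderm and FGF lists are counted but not reported here by name.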

Additional observations from a re-analysis of the deposited data

How the results depend on the processing

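The counts of called genes depend on which embryos enter. Leaving out each embryo in turn gave 13 to 379 genes higher and 13 to 447 lower, of which 12 to 373 and 12 to 425 kept their direction in stage 12 against 8. Without stage 10 embryo 1 there were 13 and 13, without stage 9 embryo 2 there were 77 and 78, without stage 9 embryo 1 there were 132 and 111, and without stage 10 embryo 2 there were 379 and 447. The median SD among stage 10 embryos lay between 0.0832 and 0.197 when 1 of them was left out, which was added after seeing the data. In fits of fewer stages, edgeR on stages 9 and 10 alone called 2 genes higher and 0 lower, and on stages 8 to 12 alone 0 and 0. With stages 8, 9, 10 and 12 alone, it called 286 and 401, and 386 of these 401 were also lower in stage 12 against 8. Scaling by library size alone put the median log2 change over all genes at -0.08 and gave 178 genes lower, 167 of them lower in stage 12 against 8. The DESeq2 Wald test gave 465 lower (434). The limma voom test with sample weights gave 737 higher (669) and 1178 lower (1074), with a weight of 0.274 for stage 10 embryo 1. The cause of these differences between fits and tools was not tested.

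Correlations across genes of the deviations from the stage mean were 0.0494, 0.0777 and 0.0425 for same-numbered embryos of stages 10 and 9. Those for embryos of unlike number lay between -0.0721 and 0.0233. Whether the replicate numbers pair the embryos was not tested. With a replicate block 257 genes were higher and 276 lower. DESeq2 size factors gave 262 and 279, and no filter on low counts gave 260 and 266.

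None of the 72 called genes that were named by rule changed sign under any alternative, while some genes that were not called did. The alternatives reuse the embryos behind the calls, so kept signs do not test the calls. Over the omissions of 1 embryo, T lay between -0.45 and 2.48, DKK1 between -0.21 and 0.27, FGF8 between -0.05 and 0.39, FST between -0.47 and 0.10, LEFTY2 between -0.10 and 0.52, LHX1 between -0.54 and 0.64, NANOG between -0.51 and 0.08 and TFAP2A between -0.17 and 0.43, all as log2 changes. With limma voom T was at -0.18, DKK1 at -0.12, FST at 0.18, LHX1 at -0.36 and TFAP2A at -0.13, and with library size alone DKK1 was at -0.03.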
